A study of Mus musculus with 15 samples.

Results

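Interferon response genes are the genes that cells switch on when interferon binds its receptors. Of 27179 genes counted in these brain libraries, 44 make up the set described here: mouse genes known to be induced by type I or type II interferon, matched by symbol to the NCBI gene numbers of the count table by a rule that names no measured value. All 44 passed the filter on low counts and are among the 17151 genes tested. They comprise 5 genes of signalling and transcription, 8 sensors and effectors that bind nucleic acids, 4 members of the Ifit family, 7 genes of ISG15, ubiquitin and ADP-ribose, 7 interferon-inducible GTPases and 13 restriction factors and other induced genes.

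The study compared mice homozygous for a PLP-α-synuclein transgene (TG, allele MGI:3604008) with non-transgenic mice of the C57Bl/6 background (WT), all 12 months old. The transgene overexpresses human α-synuclein under the PLP promoter, which is active in oligodendrocytes, so the model puts the protein into myelin-forming cells, and the line serves as a model of multiple system atrophy. There were 4 WT males, 4 WT females, 4 TG females and 3 TG males, numbered as in the labels, and the labels name no treatment. The labels give 1 library per sample and each group its own number prefix, so litter or cage cannot be told apart from group, and the p-values speak only of how far these samples spread.

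Interferons are secreted proteins that bind receptors on the cell surface, whose Jak kinases then activate STAT proteins. With type I interferon, a complex that includes Stat2 and Irf9 binds the interferon-stimulated response element (ISRE), and the response to type II interferon runs through the gamma-activated site (GAS). The induced genes detect foreign or misplaced nucleic acid, block the steps of viral growth, tag proteins with ISG15 and feed back on the pathway, and in the brain microglia, astrocytes, endothelial cells and neurons can all express them.

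Since interferon acts through elements in the promoters of its target genes, the promoters of the set were searched for them, and stretches around matches are shown first. The RefSeq table of promoters (GRCm38.p6, 250 bases before to 50 bases after each start) held 35 of the 44 genes, and not Usp18, Zbp1, Oas2, Parp9, Parp14, Iigp1, Rtp4, Ifi27 or Ifi27l2a. Both strands were searched for an ISRE core, GAAA followed after any 2 bases by GAAA, and for a GAS core, TTCNNNGAA, which reads the same on both strands. The ISRE core was found for 19 of the 35 genes (54.3%), against 3.93% of 18458 genes of the count table with a promoter, and the GAS core for 11 (31.4%), against 9.02%. Both were found for 7 genes and neither for 12. A match is a description of the letters, and no match says only that these letters are absent from this window.

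Of the 11 stretches below, 9 show an ISRE match in its plain, repeated or GAS-joined form, while those of Eif2ak2 and Irf1 show a GAS core alone. Irgm1 and Eif2ak2 passed the genotype test within the olfactory class of libraries described below, but not with the library TG female 2 left out. Each is written 5′ to 3′ on the gene's own strand with the matches in capitals. On the strand shown, an ISRE core reads either as above or as its reverse complement, TTTC followed after any 2 bases by TTTC, and neighbouring matches may overlap.
Isg15: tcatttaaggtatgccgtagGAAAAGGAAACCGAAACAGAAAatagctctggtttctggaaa
Ifit1: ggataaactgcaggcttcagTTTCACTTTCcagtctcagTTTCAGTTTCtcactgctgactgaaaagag
Ifit3: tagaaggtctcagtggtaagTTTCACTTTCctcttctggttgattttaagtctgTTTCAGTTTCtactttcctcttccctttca
Ifit3b: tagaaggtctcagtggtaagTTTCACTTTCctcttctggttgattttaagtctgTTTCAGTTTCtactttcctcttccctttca
Bst2: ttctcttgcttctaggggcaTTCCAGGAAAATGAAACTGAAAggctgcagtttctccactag
Irgm1: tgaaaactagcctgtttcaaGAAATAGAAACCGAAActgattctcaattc
Igtp: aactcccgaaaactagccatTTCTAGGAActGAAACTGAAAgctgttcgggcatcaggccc
Irgm2: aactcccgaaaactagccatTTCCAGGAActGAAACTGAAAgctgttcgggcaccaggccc
Gbp2: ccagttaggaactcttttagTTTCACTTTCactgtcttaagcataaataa
Eif2ak2: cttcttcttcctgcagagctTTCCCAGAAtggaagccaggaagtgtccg
Irf1: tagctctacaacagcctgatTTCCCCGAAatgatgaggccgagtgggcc

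On GRCm38.p6 these stretches lie at chr4:156200855-156200916 (minus strand) for Isg15, chr19:34640765-34640833 (plus strand) for Ifit1, chr19:34583353-34583436 (plus strand) for Ifit3, chr19:34607749-34607832 (plus strand) for Ifit3b, chr8:71537567-71537628 (minus strand) for Bst2, chr11:48871421-48871470 (minus strand) for Irgm1, chr11:58199491-58199551 (plus strand) for Igtp, chr11:58214882-58214942 (plus strand) for Irgm2, chr3:142620584-142620633 (plus strand) for Gbp2, chr17:78882722-78882770 (minus strand) for Eif2ak2 and chr11:53769904-53769952 (plus strand) for Irf1. In Isg15 3 ISRE cores overlap in 1 run, and in Irgm1 2 do so. Ifit1, Ifit3 and Ifit3b each hold 2 separate ISRE cores, and the Ifit3 and Ifit3b stretches are identical over 84 of 84 bases. In Bst2 a GAS core runs into overlapping ISRE cores, while Igtp and Irgm2, neighbours on chromosome 11, hold a GAS core a few bases before an ISRE core. The stretches of Eif2ak2 and Irf1 show a GAS core, and the ISRE match of Eif2ak2 lies outside the stretch shown.

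Libraries of 1 group held markers of different brain regions although all were labelled as hemisphere samples, so levels are described within 4 library classes. Ward clustering on region markers, with no interferon gene and no genotype used, gave an olfactory class of 7 libraries (WT males 1 and 2, WT females 1 and 4, TG female 2, TG males 1 and 3), a hindbrain class of 4 (WT male 3, WT female 3, TG females 1 and 4), a cortex class of 3 (WT male 4, WT female 2, TG male 4) and a cerebellum class of TG female 3 alone. Omp, a gene of olfactory sensory neurons, was at 42.2 to 159 CPM in the first class and at no more than 2.71 CPM elsewhere, and Hoxa5, of the hindbrain, at 69.3 to 121 CPM in the second. CPM is a gene's count scaled to the depth of its library, with TMM factors. It does not correct for gene length, so it is compared between libraries and not between genes. Library totals ran from 15170772 to 35850998 counts, and 3 counts correspond to 0.0833 to 0.194 CPM. These libraries are bulk tissue, in which fewer cells of a type and less RNA per cell cannot be told apart.

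Most of the 44 genes were high or low in the same libraries. Their mean log2 CPM in the olfactory class was 2.59 and 2.36 in WT males 1 and 2, 3.40 and 3.06 in WT females 1 and 4, 3.31 and 3.55 in TG males 1 and 3 and 4.37 in TG female 2. In the hindbrain class it was 3.16 in WT male 3, 3.58 in WT female 3, 3.17 in TG female 1 and 2.86 in TG female 4. In the cortex class it was 2.53 in WT male 4, 2.20 in WT female 2 and 2.37 in TG male 4, and TG female 3 had 3.00. TG female 2 was the highest of all libraries and the cortex libraries and the 2 olfactory WT males were the lowest. TG female 2 held the highest value of all 15 libraries for 39 of the 44 genes, against 2.74% of all genes tested, and the 5 exceptions were Stat2, Adar, Herc6, Cmpk2 and Xaf1. WT female 2, of the cortex class, held the lowest value for 22, and the share of all genes lowest in that library was not counted. TG female 2 was singled out with its values known, so these counts are a description.

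**Figure D1:**
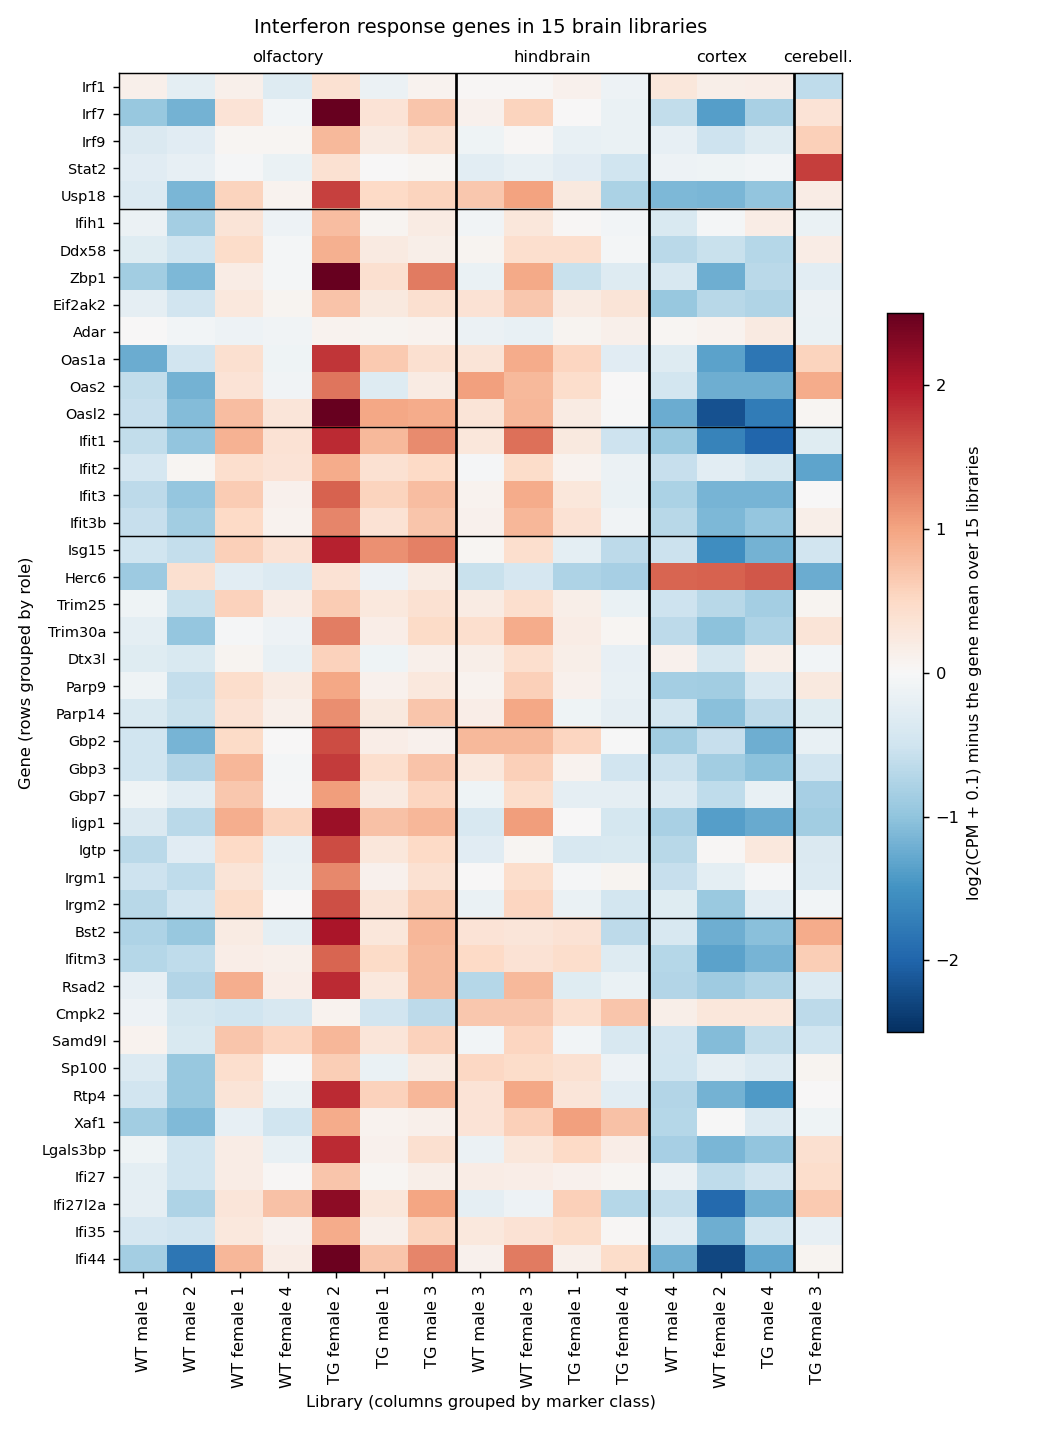
Each row is 1 of the 44 genes, grouped by role, and each column 1 of 15 libraries, grouped by marker class; colour is log2(CPM + 0.1) minus the gene's mean over the 15 libraries, with red above and blue below that mean and the scale ending at 2.5 in both directions. TG female 2 is red in nearly all rows, the cortex libraries and the olfactory WT males are mostly blue, and Herc6 runs the other way in the cortex class.

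Within the olfactory class, the comparison of TG with WT asks whether the transgene goes with a higher interferon response among libraries of 1 marker class. These libraries are not tissue of 1 kind. Their summed striatal neuron markers ran from 377 CPM in WT male 2 to 1579.6 CPM in WT male 1 and 1654 CPM in TG female 2. Xaf1, Irgm1, Eif2ak2, Zbp1 and Rtp4 rose in TG, and the other 39 genes did not pass the test although all 44 had a log2 difference above 0. The median log2 difference of the 44 was 1.07, against 0.01 for all genes tested, of which 51.7% were above 0. The test called 5 of the 44, against 0.245% of all genes in either direction (0.128% upward), at an adjusted p under 0.05 in edgeR (quasi-likelihood, Benjamini-Hochberg). At an unadjusted p under 0.05 there were 39, against 7.75% of all genes. Without TG female 2 no gene of the set was called in that test (0.105% of all genes were), with 29 at an unadjusted p under 0.05 (16% of all genes) and a median log2 difference of 0.78. DESeq2 called 23 (0.671% of all genes) and a fit of the 7 olfactory libraries alone 15 (0.267%), while 0 were called without the sex covariate (0.175%). With other libraries left out, the count was 17 without WT male 4 (0.403% of all genes) or without WT female 2 (0.392%), 3 without WT female 1 (0.152%) or TG male 1 (0.115%), and 2 without WT male 3 (0.187%) or WT female 3 (0.181%). It was 1 without each of WT male 1 (0.205%), WT male 2 (0.129%), WT female 4 (0.117%), TG female 1 (0.146%), TG female 4 (0.152%) and TG male 3 (0.103%).

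Matched by sex, both TG arms stood above their own WT libraries, and WT females above WT males, for most genes. TG males 1 and 3 both exceeded WT males 1 and 2 for 41 genes (27.5% of all genes tested), the exceptions being Irf1, Herc6 and Cmpk2, and the median log2 ratio of the means was 0.89. TG female 2 exceeded WT females 1 and 4 for all 44 (33.6%), with a median of 1.16. WT females 1 and 4 both exceeded WT males 1 and 2 for 39 (24.7%), with a median of 0.74. TG males over WT females had a median of 0.17, with 34 genes above 0. All 3 TG libraries lay above all 4 WT libraries for 12 genes (3.84% of all genes tested): Irf9, Stat2, Zbp1, Adar, Oas1a, Oasl2, Isg15, Trim30a, Bst2, Ifitm3, Rtp4 and Xaf1. The values of TG males and WT females thus overlapped for most of the set, and 1 TG female library is all that the olfactory class holds.

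**Figure D2:**
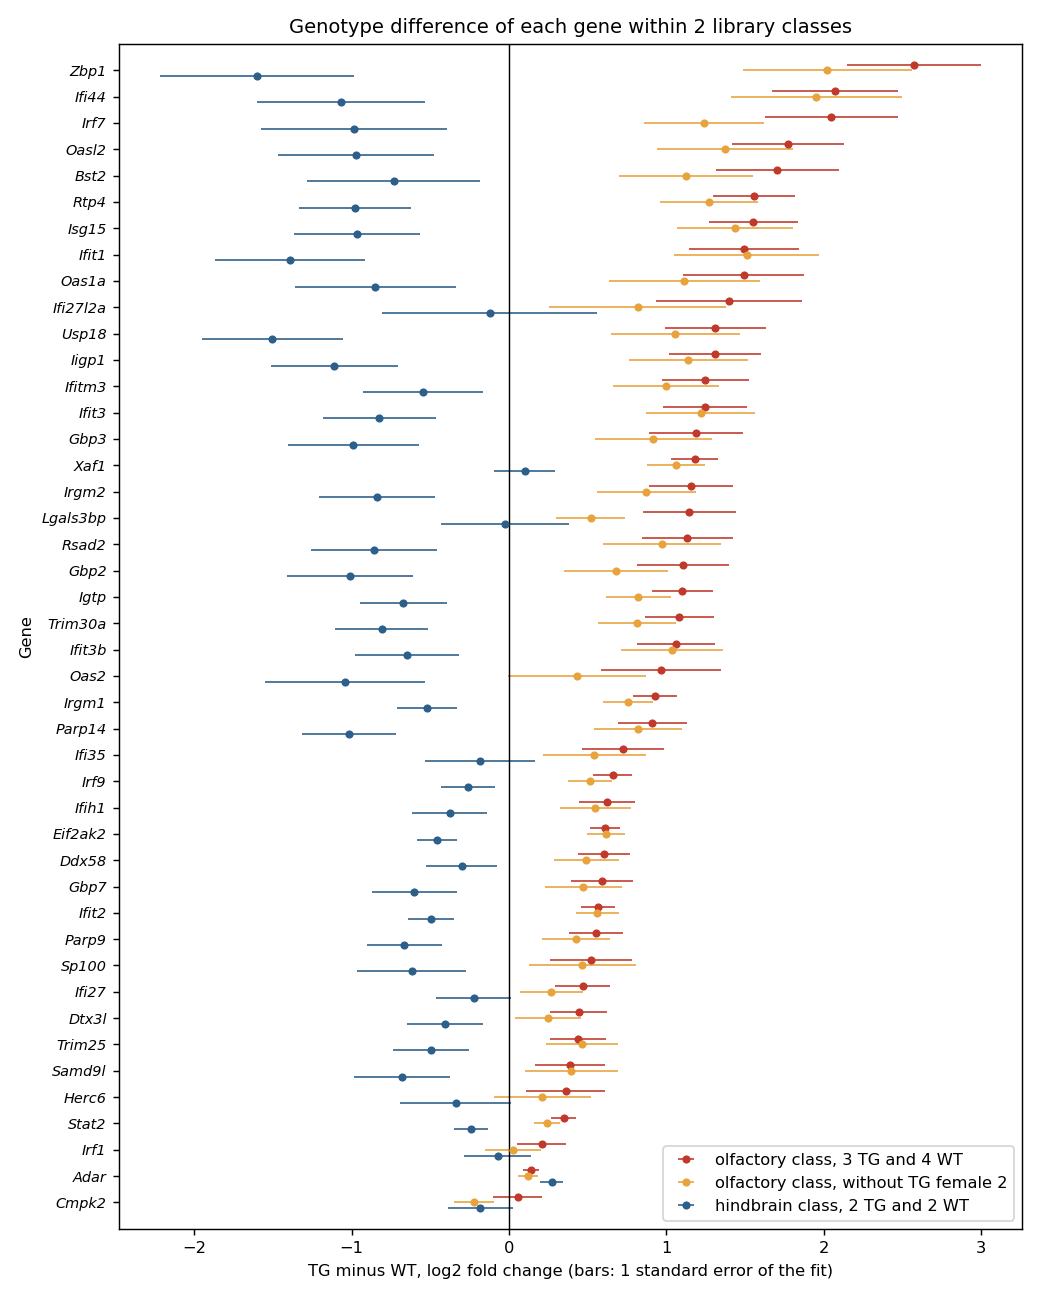
Fitted TG minus WT log2 fold change of each of the 44 genes (x axis), with bars of 1 standard error, in the olfactory class (red, 3 TG and 4 WT libraries), the same class without TG female 2 (orange) and the hindbrain class (blue, 2 TG and 2 WT libraries). Red points are all above 0 with a median of 1.07, orange points have a median of 0.78, and blue points have a median of -0.66 with 2 above 0.

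Of the 5 genes of signalling and transcription, none passed the test in the olfactory class. Irf7 (NCBI gene 54123, chromosome 7, 141263183 to 141266499) encodes the transcription factor that drives type I interferon genes and is itself induced. Irf7 lay at 3.1 and 2.62 CPM in WT males 1 and 2, 7.73 and 5.81 CPM in WT females 1 and 4, 7.68 and 9.93 CPM in TG males 1 and 3 and 41.5 CPM in TG female 2. Irf7 outside that class lay at 6.55 and 9.03 CPM in the hindbrain libraries WT male 3 and WT female 3 and 6.13 and 5.39 CPM in TG females 1 and 4, at 3.95, 2.29 and 3.44 CPM in the cortex libraries (WT male 4, WT female 2, TG male 4), with 7.75 CPM in TG female 3. TG female 2 stood apart, and TG male 1 lay just below WT female 1, so the olfactory groups overlapped. Usp18 (NCBI gene 24110, chromosome 6, 121245906 to 121270917) encodes the protease that removes ISG15 and damps the type I receptor. Usp18 lay at 1.13 and 0.598 CPM in WT males 1 and 2, 2.17 and 1.55 CPM in WT females 1 and 4, 2.08 and 2.2 CPM in TG males 1 and 3 and 4.97 CPM in TG female 2. Usp18 outside that class lay at 2.37 and 3 CPM in the hindbrain libraries WT male 3 and WT female 3 and 1.74 and 0.794 CPM in TG females 1 and 4, at 0.617, 0.601 and 0.688 CPM in the cortex libraries (WT male 4, WT female 2, TG male 4), with 1.67 CPM in TG female 3. Usp18 again peaked in TG female 2, and in the hindbrain class both TG libraries were below both WT libraries.

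Irf9 (NCBI gene 16391, chromosome 14, 55603985 to 55610030) and Stat2 (NCBI gene 20847, chromosome 10, 128270498 to 128292853) encode partners in the complex that binds the ISRE. Irf9 lay at 18.3 and 19.2 CPM in WT males 1 and 2, 24.2 and 24.2 CPM in WT females 1 and 4, 27.4 and 30.6 CPM in TG males 1 and 3 and 41.3 CPM in TG female 2. Irf9 outside that class lay at 21.7 and 24 CPM in the hindbrain libraries WT male 3 and WT female 3 and 20.5 and 21 CPM in TG females 1 and 4, at 20.2, 16.3 and 18.6 CPM in the cortex libraries (WT male 4, WT female 2, TG male 4), with 35.3 CPM in TG female 3. For Irf9 all 3 olfactory TG libraries lay above the 4 WT libraries. Stat2 lay at 46.7 and 48.8 CPM in WT males 1 and 2, 55.4 and 50.4 CPM in WT females 1 and 4, 56.9 and 58.3 CPM in TG males 1 and 3 and 74 CPM in TG female 2. Stat2 outside that class lay at 47 and 49.9 CPM in the hindbrain libraries WT male 3 and WT female 3 and 46.6 and 40.2 CPM in TG females 1 and 4, at 52.1, 52.5 and 54.2 CPM in the cortex libraries (WT male 4, WT female 2, TG male 4), with 189 CPM in TG female 3. Stat2 was high in TG female 3 alone, the cerebellum library. Stat2 overlaps Apof, a second counted gene, and reads could be shared in counting. Irf1 (NCBI gene 16362), a transcription factor of the type II response, lay at 6.53 to 8.88 CPM in olfactory WT and 7.35 to 10.7 CPM in TG, with a log2 difference of 0.21 ± 0.16 (SE). Fitted log2 differences (± SE) in the olfactory class were for Irf7 2.05 ± 0.42, Usp18 1.31 ± 0.32, Irf9 0.66 ± 0.12 and Stat2 0.35 ± 0.08. Their adjusted p was 0.159 for Irf7, 0.232 for Usp18, 0.0859 for Irf9 and 0.191 for Stat2 in edgeR (quasi-likelihood, Benjamini-Hochberg). The difference of Irf7 without TG female 2 was 1.24.

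Of the 8 sensors and effectors that bind nucleic acids, Zbp1 and Eif2ak2 rose in the olfactory class. Zbp1 (NCBI gene 58203, chromosome 2, 173206612 to 173218959) encodes a sensor of Z-form nucleic acid that can start cell death. Zbp1 lay at 0.238 and 0.184 CPM in WT males 1 and 2, 0.604 and 0.498 CPM in WT females 1 and 4, 0.713 and 1.43 CPM in TG males 1 and 3 and 4.16 CPM in TG female 2. Zbp1 outside that class lay at 0.450 and 1.08 CPM in the hindbrain libraries WT male 3 and WT female 3 and 0.323 and 0.397 CPM in TG females 1 and 4, at 0.370, 0.164 and 0.287 CPM in the cortex libraries (WT male 4, WT female 2, TG male 4), with 0.417 CPM in TG female 3. Its levels were low, near the limit that 3 counts allow in both olfactory WT males, and each of the 3 TG libraries was above each WT library. The means were 2.1 ± 1.82 CPM (SD, n = 3) in TG and 0.381 ± 0.202 CPM (SD, n = 4) in WT. Eif2ak2 (NCBI gene 19106, chromosome 17, 78850504 to 78882572) encodes PKR, the kinase that stops translation on binding double-stranded RNA. Eif2ak2 lay at 11.5 and 9.71 CPM in WT males 1 and 2, 16.2 and 14.3 CPM in WT females 1 and 4, 16.1 and 17.8 CPM in TG males 1 and 3 and 22.1 CPM in TG female 2. Eif2ak2 outside that class lay at 17.5 and 21.6 CPM in the hindbrain libraries WT male 3 and WT female 3 and 15.7 and 16.9 CPM in TG females 1 and 4, at 6.97, 8.36 and 8.03 CPM in the cortex libraries (WT male 4, WT female 2, TG male 4), with 12.2 CPM in TG female 3. TG male 1 and WT female 1 were nearly equal, so the groups overlapped. The means were 18.7 ± 3.09 CPM (SD, n = 3) in TG and 12.9 ± 2.87 CPM (SD, n = 4) in WT. Eif2ak2 overlaps Gm6548 in the annotation.

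Oasl2 (NCBI gene 23962, chromosome 5, 114896926 to 114912245) belongs to the family of oligoadenylate synthetases, which answer to double-stranded RNA. Oasl2 lay at 7.69 and 5.34 CPM in WT males 1 and 2, 19.6 and 14.1 CPM in WT females 1 and 4, 22.4 and 21.9 CPM in TG males 1 and 3 and 65.1 CPM in TG female 2. Oasl2 outside that class lay at 14.4 and 20.4 CPM in the hindbrain libraries WT male 3 and WT female 3 and 13.2 and 11.4 CPM in TG females 1 and 4, at 4.81, 2.46 and 3.32 CPM in the cortex libraries (WT male 4, WT female 2, TG male 4), with 11.9 CPM in TG female 3. For Oasl2 the 3 TG libraries lay above the 4 WT libraries, and the cortex libraries were the lowest. Adar (NCBI gene 56417, chromosome 3, 89714469 to 89753455) encodes the enzyme that edits adenosine in double-stranded RNA, and it was the flattest gene of the group. Adar lay at 310.0 and 294 CPM in WT males 1 and 2, 281 and 290.2 CPM in WT females 1 and 4, 320.3 and 329 CPM in TG males 1 and 3 and 326 CPM in TG female 2. Adar outside that class lay at 276 and 271 CPM in the hindbrain libraries WT male 3 and WT female 3 and 321 and 334 CPM in TG females 1 and 4, at 318, 325 and 359.7 CPM in the cortex libraries (WT male 4, WT female 2, TG male 4), with 272 CPM in TG female 3. Its olfactory TG libraries were all above the WT libraries by a small margin. Ddx58 (NCBI gene 230073, chromosome 4, 40203777 to 40239825) encodes RIG-I, a sensor of viral RNA. Ddx58 lay at 5.96 and 5.2 CPM in WT males 1 and 2, 10.2 and 7.14 CPM in WT females 1 and 4, 8.67 and 8.18 CPM in TG males 1 and 3 and 13.8 CPM in TG female 2. Ddx58 outside that class lay at 7.77 and 9.91 CPM in the hindbrain libraries WT male 3 and WT female 3 and 9.93 and 7.15 CPM in TG females 1 and 4, at 4.57, 4.97 and 4.47 CPM in the cortex libraries (WT male 4, WT female 2, TG male 4), with 8.35 CPM in TG female 3. Only TG female 2 exceeded WT female 1 in the olfactory class.

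In the olfactory class the fitted log2 differences (± SE) were for Zbp1 2.58 ± 0.43, Eif2ak2 0.61 ± 0.10, Oasl2 1.77 ± 0.36, Ddx58 0.60 ± 0.17 and Adar 0.14 ± 0.05. The adjusted p was 0.0392 for Zbp1, 0.0294 for Eif2ak2, 0.153 for Oasl2, 0.335 for Ddx58 and 0.579 for Adar in edgeR (quasi-likelihood, Benjamini-Hochberg). Over 30 settings Zbp1 and Eif2ak2 were each called in 13, with an adjusted p from 0.00774 to 0.669 for Zbp1 and from 9.08e-04 to 0.669 for Eif2ak2, in these tools with Benjamini-Hochberg adjustment. With TG female 2 left out the differences were 2.02 for Zbp1 and 0.62 for Eif2ak2, with an adjusted p of 0.199 and 0.125 in edgeR (quasi-likelihood, Benjamini-Hochberg). Ifih1, the RNA sensor MDA5, Oas1a and Oas2 did not pass, with log2 differences of 0.62, 1.49 and 0.97; Oas1a lay at 0.477 to 1.69 CPM in WT and 1.7 to 4.61 CPM in TG.

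The 4 Ifit genes, whose proteins bind viral RNA and block its translation, lie side by side on chromosome 19, and none passed the test. Ifit3 (NCBI gene 15959, chromosome 19, 34583119 to 34588982) shares a near-identical copy with Ifit3b, so their reads could be split between them in counting. Ifit3 lay at 26.6 and 21.2 CPM in WT males 1 and 2, 65.1 and 44.9 CPM in WT females 1 and 4, 61.3 and 70.9 CPM in TG males 1 and 3 and 116 CPM in TG female 2. Ifit3 outside that class lay at 44.4 and 79.5 CPM in the hindbrain libraries WT male 3 and WT female 3 and 50.4 and 37.3 CPM in TG females 1 and 4, at 23.9, 18.6 and 18.6 CPM in the cortex libraries (WT male 4, WT female 2, TG male 4), with 42 CPM in TG female 3. TG male 1 was below WT female 1, and WT female 3 was the highest library of the hindbrain class. Ifit2 (NCBI gene 15958, chromosome 19, 34550550 to 34576534) likewise had TG male 1 below WT female 1. Ifit2 lay at 21.1 and 29.5 CPM in WT males 1 and 2, 38.2 and 36.2 CPM in WT females 1 and 4, 36.9 and 39.9 CPM in TG males 1 and 3 and 54.2 CPM in TG female 2. Ifit2 outside that class lay at 28 and 39.2 CPM in the hindbrain libraries WT male 3 and WT female 3 and 30.1 and 25.6 CPM in TG females 1 and 4, at 19, 23.7 and 20.9 CPM in the cortex libraries (WT male 4, WT female 2, TG male 4), with 11.4 CPM in TG female 3. In TG female 3 Ifit2 was at its lowest of the 15 libraries. Log2 differences (± SE) in the olfactory class were for Ifit1 1.49 ± 0.35, Ifit2 0.57 ± 0.11, Ifit3 1.25 ± 0.26 and Ifit3b 1.06 ± 0.25. Their adjusted p was 0.245 for Ifit1, 0.0889 for Ifit2, 0.185 for Ifit3 and 0.225 for Ifit3b in edgeR (quasi-likelihood, Benjamini-Hochberg). Ifit1 lay at 6.58 to 24.3 CPM in WT and 23.1 to 48.3 CPM in TG, and Ifit3b at 13.8 to 35.9 and 32.4 to 59.2 CPM. The difference of Ifit3 without TG female 2 was 1.22 and that of Ifit1 1.51, close to the values with it.

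Among the 7 genes of ISG15, ubiquitin and ADP-ribose, none passed the test in the olfactory class. Isg15 (NCBI gene 100038882, chromosome 4, 156199424 to 156200818) encodes the ubiquitin-like protein that is joined to other proteins in the response. Isg15 lay at 2.92 and 2.72 CPM in WT males 1 and 2, 6.4 and 5.37 CPM in WT females 1 and 4, 9.32 and 10.1 CPM in TG males 1 and 3 and 16 CPM in TG female 2. Isg15 outside that class lay at 4.34 and 5.64 CPM in the hindbrain libraries WT male 3 and WT female 3 and 3.48 and 2.61 CPM in TG females 1 and 4, at 2.84, 1.37 and 1.78 CPM in the cortex libraries (WT male 4, WT female 2, TG male 4), with 2.98 CPM in TG female 3. All 3 olfactory TG libraries exceeded all 4 WT libraries, and in the hindbrain class both TG libraries were below both WT libraries. Herc6 (NCBI gene 67138, chromosome 6, 57580992 to 57665136) encodes the mouse ligase that attaches ISG15. Herc6 lay at 5.72 and 14.3 CPM in WT males 1 and 2, 8.93 and 8.52 CPM in WT females 1 and 4, 9.93 and 12.4 CPM in TG males 1 and 3 and 13.9 CPM in TG female 2. Herc6 outside that class lay at 7.32 and 8.08 CPM in the hindbrain libraries WT male 3 and WT female 3 and 6.32 and 6.01 CPM in TG females 1 and 4, at 30, 30.1 and 31.7 CPM in the cortex libraries (WT male 4, WT female 2, TG male 4), with 4.53 CPM in TG female 3. The 3 cortex libraries stood above every other library. Trim25 (NCBI gene 217069, chromosome 11, 88999403 to 89020294) encodes a ubiquitin ligase that acts on RIG-I. Trim25 lay at 16.3 and 12 CPM in WT males 1 and 2, 26.4 and 20.1 CPM in WT females 1 and 4, 21.2 and 23 CPM in TG males 1 and 3 and 27.4 CPM in TG female 2. Trim25 outside that class lay at 20.5 and 23.7 CPM in the hindbrain libraries WT male 3 and WT female 3 and 19.6 and 15.8 CPM in TG females 1 and 4, at 12.3, 10.8 and 9.8 CPM in the cortex libraries (WT male 4, WT female 2, TG male 4), with 18.6 CPM in TG female 3. Trim25 was lowest in the cortex class and in WT male 2.

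Parp9 (NCBI gene 80285, chromosome 16, 35938470 to 35972621) and Parp14 (NCBI gene 547253, chromosome 16, 35831892 to 35871518) encode ADP-ribosyltransferases of macrophages and other cells, and Parp9 overlaps Dtx3l, its partner ligase. Parp9 lay at 4.83 and 3.41 CPM in WT males 1 and 2, 7.12 and 6.03 CPM in WT females 1 and 4, 5.59 and 6.26 CPM in TG males 1 and 3 and 10.2 CPM in TG female 2. Parp9 outside that class lay at 5.56 and 7.92 CPM in the hindbrain libraries WT male 3 and WT female 3 and 5.61 and 4.6 CPM in TG females 1 and 4, at 2.84, 2.79 and 3.9 CPM in the cortex libraries (WT male 4, WT female 2, TG male 4), with 6.2 CPM in TG female 3. For Parp9 both TG males lay below WT female 1. Parp14 lay at 7.33 and 6.45 CPM in WT males 1 and 2, 12.4 and 10.5 CPM in WT females 1 and 4, 11.4 and 15.5 CPM in TG males 1 and 3 and 21.5 CPM in TG female 2. Parp14 outside that class lay at 10.8 and 18.7 CPM in the hindbrain libraries WT male 3 and WT female 3 and 8.84 and 8.11 CPM in TG females 1 and 4, at 6.91, 4.59 and 6.02 CPM in the cortex libraries (WT male 4, WT female 2, TG male 4), with 7.75 CPM in TG female 3. For Parp14 WT female 3 was the highest of the hindbrain class. The log2 differences (± SE) in the olfactory class were for Isg15 1.55 ± 0.28, Parp14 0.91 ± 0.22, Parp9 0.55 ± 0.17, Trim25 0.44 ± 0.18 and Herc6 0.36 ± 0.25. The adjusted p was 0.0708 for Isg15, 0.230 for Parp14, 0.446 for Parp9, 0.600 for Trim25 and 0.703 for Herc6 in edgeR (quasi-likelihood, Benjamini-Hochberg). Trim30a and Dtx3l had log2 differences of 1.08 and 0.44, with Trim30a at 4.33 to 8.33 CPM in WT and 9.54 to 20.8 CPM in TG.

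Of the 7 interferon-inducible GTPases, which attack the membranes around intracellular pathogens, Irgm1 rose in the olfactory class. Irgm1 (NCBI gene 15944, chromosome 11, 48865245 to 48871420) regulates the other immunity-related GTPases. Irgm1 lay at 14.1 and 12.9 CPM in WT males 1 and 2, 25.2 and 18 CPM in WT females 1 and 4, 21.7 and 26.5 CPM in TG males 1 and 3 and 46.2 CPM in TG female 2. Irgm1 outside that class lay at 20.3 and 27.5 CPM in the hindbrain libraries WT male 3 and WT female 3 and 19.9 and 21.3 CPM in TG females 1 and 4, at 13.5, 16.9 and 19.8 CPM in the cortex libraries (WT male 4, WT female 2, TG male 4), with 15.9 CPM in TG female 3. WT female 1 lay between the TG males, so the groups overlapped. The means were 31.5 ± 13 CPM (SD, n = 3) in TG and 17.6 ± 5.56 CPM (SD, n = 4) in WT. Igtp (NCBI gene 16145, chromosome 11, 58199556 to 58207592) encodes another immunity-related GTPase. Igtp lay at 6.44 and 8.56 CPM in WT males 1 and 2, 14.7 and 9.13 CPM in WT females 1 and 4, 12.6 and 14.7 CPM in TG males 1 and 3 and 32.5 CPM in TG female 2. Igtp outside that class lay at 8.47 and 10.8 CPM in the hindbrain libraries WT male 3 and WT female 3 and 7.8 and 7.94 CPM in TG females 1 and 4, at 6.36, 10.5 and 12.6 CPM in the cortex libraries (WT male 4, WT female 2, TG male 4), with 8.05 CPM in TG female 3. Igtp in TG male 4 was the highest of the 3 cortex libraries.

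Gbp2 (NCBI gene 14469, chromosome 3, 142620663 to 142638008) encodes a guanylate-binding protein. Gbp2 lay at 2.8 and 1.75 CPM in WT males 1 and 2, 5.61 and 4.04 CPM in WT females 1 and 4, 4.5 and 4.34 CPM in TG males 1 and 3 and 12.6 CPM in TG female 2. Gbp2 outside that class lay at 7.12 and 7.11 CPM in the hindbrain libraries WT male 3 and WT female 3 and 5.87 and 3.97 CPM in TG females 1 and 4, at 2.16, 2.68 and 1.66 CPM in the cortex libraries (WT male 4, WT female 2, TG male 4), with 3.52 CPM in TG female 3. TG males 1 and 3 lay between the 2 WT females. Iigp1 (NCBI gene 60440, chromosome 18, 60373616 to 60392634) encodes an effector GTPase that coats the vacuole of parasites. Iigp1 lay at 4.41 and 3.54 CPM in WT males 1 and 2, 10.9 and 8.52 CPM in WT females 1 and 4, 9.54 and 10.2 CPM in TG males 1 and 3 and 25.5 CPM in TG female 2. Iigp1 outside that class lay at 4.3 and 12 CPM in the hindbrain libraries WT male 3 and WT female 3 and 5.74 and 4.2 CPM in TG females 1 and 4, at 3.21, 2.13 and 2.35 CPM in the cortex libraries (WT male 4, WT female 2, TG male 4), with 3.1 CPM in TG female 3. WT female 1 exceeded both TG males, and WT female 3 was the highest hindbrain library. Olfactory log2 differences (± SE) were for Irgm1 0.93 ± 0.14, Igtp 1.10 ± 0.19, Gbp2 1.11 ± 0.29 and Iigp1 1.31 ± 0.29. Their adjusted p was 0.0248 for Irgm1, 0.0609 for Igtp, 0.303 for Gbp2 and 0.191 for Iigp1 in edgeR (quasi-likelihood, Benjamini-Hochberg). Irgm1 was called in 16 of 30 settings, with an adjusted p from 1.77e-05 to 0.679 in these tools with Benjamini-Hochberg adjustment. Its difference without TG female 2 was 0.76, with an adjusted p of 0.140 in edgeR (quasi-likelihood, Benjamini-Hochberg). Gbp3, Gbp7 and Irgm2 did not pass and had log2 differences of 1.19, 0.59 and 1.16.

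Of the 13 restriction factors and other induced genes, Xaf1 and Rtp4 rose in the olfactory class. Xaf1 (NCBI gene 327959, chromosome 11, 72301461 to 72313733) encodes an antagonist of the apoptosis inhibitor XIAP. Xaf1 lay at 3.04 and 2.58 CPM in WT males 1 and 2, 4.89 and 3.99 CPM in WT females 1 and 4, 5.98 and 6.2 CPM in TG males 1 and 3 and 10.9 CPM in TG female 2. Xaf1 outside that class lay at 7.24 and 8.55 CPM in the hindbrain libraries WT male 3 and WT female 3 and 11.7 and 9.42 CPM in TG females 1 and 4, at 3.39, 5.63 and 4.47 CPM in the cortex libraries (WT male 4, WT female 2, TG male 4), with 5.25 CPM in TG female 3. The olfactory groups did not overlap, and the TG hindbrain libraries also lay above the WT ones. The means were 7.69 ± 2.78 CPM (SD, n = 3) in TG and 3.62 ± 1.03 CPM (SD, n = 4) in WT. Rtp4 (NCBI gene 67775, chromosome 16, 23520219 to 23614222) encodes a chaperone of receptors, and the gene overlaps Masp1. Rtp4 lay at 3.16 and 2.26 CPM in WT males 1 and 2, 5.55 and 3.93 CPM in WT females 1 and 4, 6.69 and 7.96 CPM in TG males 1 and 3 and 16.4 CPM in TG female 2. Rtp4 outside that class lay at 5.65 and 8.83 CPM in the hindbrain libraries WT male 3 and WT female 3 and 5.48 and 3.69 CPM in TG females 1 and 4, at 2.65, 1.91 and 1.61 CPM in the cortex libraries (WT male 4, WT female 2, TG male 4), with 4.47 CPM in TG female 3. The olfactory groups did not overlap for Rtp4 either, while the TG hindbrain libraries lay below the WT ones. The means were 10.3 ± 5.26 CPM (SD, n = 3) in TG and 3.72 ± 1.4 CPM (SD, n = 4) in WT.

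Bst2 (NCBI gene 69550, chromosome 8, 71534255 to 71537472) encodes tetherin, which holds budding virus to the cell. Bst2 lay at 2.03 and 1.8 CPM in WT males 1 and 2, 4.1 and 2.99 CPM in WT females 1 and 4, 4.33 and 6.42 CPM in TG males 1 and 3 and 15 CPM in TG female 2. Bst2 outside that class lay at 4.5 and 4.42 CPM in the hindbrain libraries WT male 3 and WT female 3 and 4.58 and 2.21 CPM in TG females 1 and 4, at 2.65, 1.48 and 1.66 CPM in the cortex libraries (WT male 4, WT female 2, TG male 4), with 6.86 CPM in TG female 3. The 3 olfactory TG libraries lay above the WT ones, TG male 1 by little. Ifi27l2a (NCBI gene 76933, chromosome 12, 103433873 to 103443680) encodes a small membrane protein, and the gene overlaps Ifi27. Ifi27l2a lay at 1.31 and 0.875 CPM in WT males 1 and 2, 1.93 and 2.66 CPM in WT females 1 and 4, 1.92 and 3.18 CPM in TG males 1 and 3 and 7.66 CPM in TG female 2. Ifi27l2a outside that class lay at 1.31 and 1.42 CPM in the hindbrain libraries WT male 3 and WT female 3 and 2.39 and 0.908 CPM in TG females 1 and 4, at 0.987, 0.328 and 0.631 CPM in the cortex libraries (WT male 4, WT female 2, TG male 4), with 2.5 CPM in TG female 3. TG male 1 was below WT female 4. Lgals3bp (NCBI gene 19039, chromosome 11, 118392747 to 118401959) encodes a secreted galectin-binding protein. Lgals3bp lay at 5.66 and 4.28 CPM in WT males 1 and 2, 6.94 and 5.37 CPM in WT females 1 and 4, 6.58 and 8.12 CPM in TG males 1 and 3 and 22.4 CPM in TG female 2. Lgals3bp outside that class lay at 5.52 and 7.42 CPM in the hindbrain libraries WT male 3 and WT female 3 and 8.71 and 6.92 CPM in TG females 1 and 4, at 3.39, 2.73 and 3.04 CPM in the cortex libraries (WT male 4, WT female 2, TG male 4), with 8.11 CPM in TG female 3. TG male 1 lay between the WT females, TG male 3 above both, and TG female 2 far above all.

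Cmpk2 (NCBI gene 22169, chromosome 12, 26469117 to 26479837) encodes a mitochondrial nucleotide kinase, and it departed from the rest of the set. Cmpk2 lay at 27.2 and 22.1 CPM in WT males 1 and 2, 21.2 and 22.5 CPM in WT females 1 and 4, 21.6 and 18.9 CPM in TG males 1 and 3 and 31.6 CPM in TG female 2. Cmpk2 outside that class lay at 47.6 and 48 CPM in the hindbrain libraries WT male 3 and WT female 3 and 40.1 and 48.1 CPM in TG females 1 and 4, at 33, 36.3 and 36.3 CPM in the cortex libraries (WT male 4, WT female 2, TG male 4), with 19 CPM in TG female 3. The hindbrain libraries stood above all others, and the olfactory TG males did not exceed the WT males. Samd9l (NCBI gene 209086, chromosome 6, 3372257 to 3399571) encodes a restriction factor of poxviruses. Samd9l lay at 16.9 and 12.1 CPM in WT males 1 and 2, 25.6 and 22.9 CPM in WT females 1 and 4, 19.5 and 23.5 CPM in TG males 1 and 3 and 28.3 CPM in TG female 2. Samd9l outside that class lay at 15 and 23 CPM in the hindbrain libraries WT male 3 and WT female 3 and 15 and 12 CPM in TG females 1 and 4, at 11.4, 7.43 and 10.2 CPM in the cortex libraries (WT male 4, WT female 2, TG male 4), with 11.1 CPM in TG female 3. Samd9l in WT female 1 exceeded both TG males. For the olfactory class the log2 differences (± SE) were Xaf1 1.18 ± 0.15, Rtp4 1.56 ± 0.26, Bst2 1.71 ± 0.39, Ifi27l2a 1.40 ± 0.46, Lgals3bp 1.15 ± 0.30, Samd9l 0.39 ± 0.22 and Cmpk2 0.06 ± 0.15. The adjusted p was 0.00867 for Xaf1, 0.0447 for Rtp4, 0.207 for Bst2, 0.506 for Ifi27l2a, 0.301 for Lgals3bp, 0.670 for Samd9l and 0.927 for Cmpk2 in edgeR (quasi-likelihood, Benjamini-Hochberg). Xaf1 was called in 24 of 30 settings and Rtp4 in 11, with an adjusted p from 5.76e-06 to 0.669 for Xaf1 and from 1.57e-04 to 0.669 for Rtp4, in these tools with Benjamini-Hochberg adjustment. Leaving out TG female 2 gave differences of 1.06 and 1.27, with an adjusted p of 0.0800 and 0.180 in edgeR (quasi-likelihood, Benjamini-Hochberg). The 6 others did not pass: Ifi44 (2.08), Ifitm3 (1.25), Rsad2, the enzyme viperin (1.13), Ifi35 (0.72), Sp100 of nuclear bodies (0.52) and Ifi27 (0.47), all as log2 differences. Ifi44 lay at 0.414 to 3.08 CPM in WT and 2.8 to 9.68 CPM in TG.

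**Figure D3:**
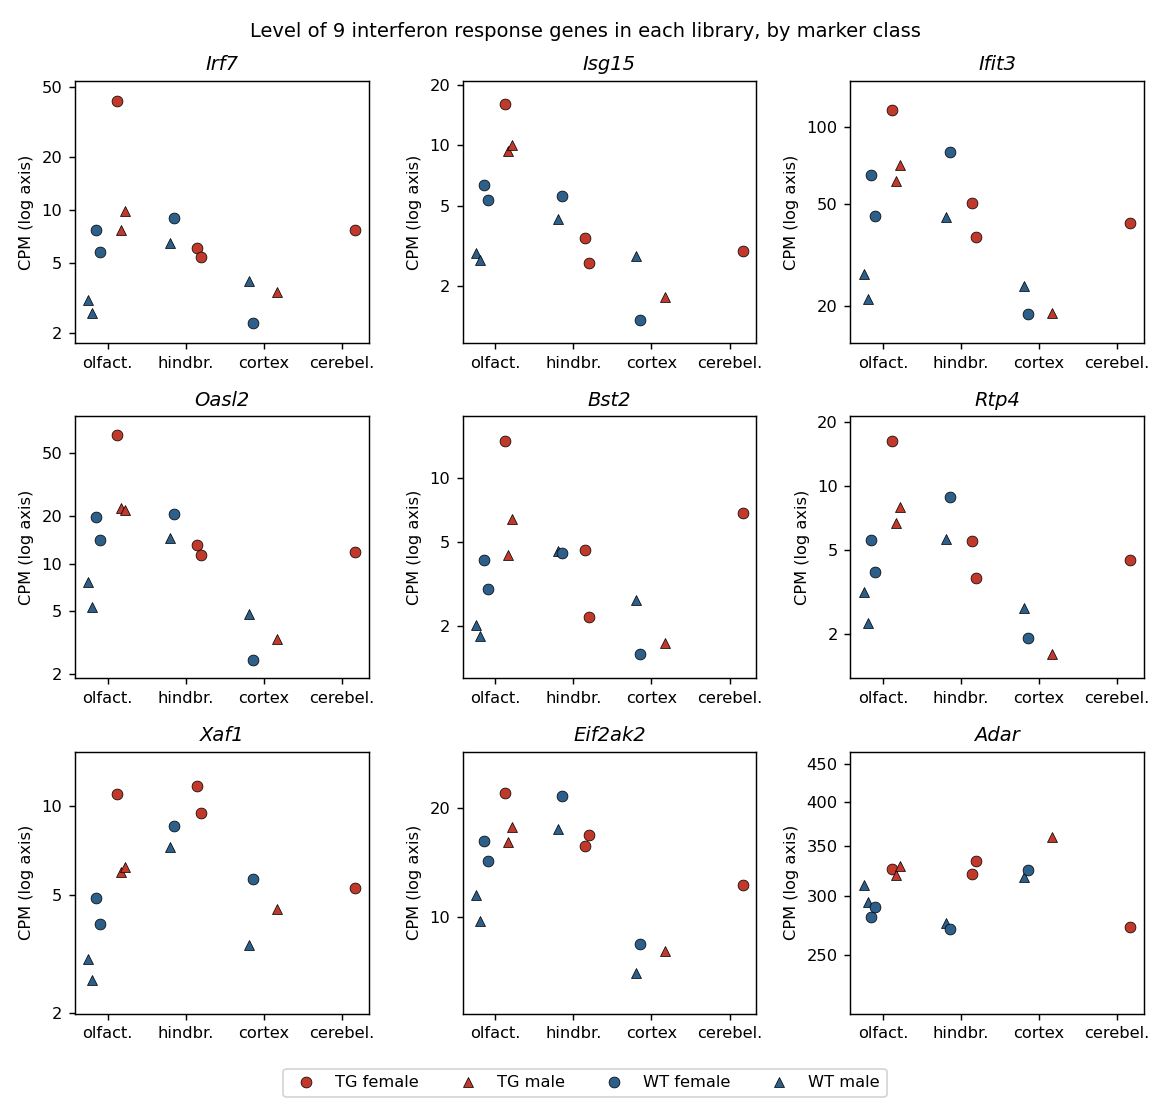
Level of 9 genes of the set in each of 15 libraries, in CPM on a log axis, by library class (x axis); circles are females, triangles males, red TG and blue WT, and each point is 1 library. In the olfactory class the TG points of Isg15, Oasl2, Bst2, Rtp4 and Xaf1 lie above the WT points with TG female 2 at the top, in the hindbrain class the TG points of Irf7, Isg15, Oasl2, Rtp4 and Eif2ak2 lie below the WT points and those of Xaf1 and Adar above, and Adar differs little between libraries.

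In the hindbrain class nearly all fitted differences lay below 0, and no gene passed the test. Of the 44 genes 42 had a log2 difference below 0 between TG females 1 and 4 and WT male 3 and WT female 3, with a median of -0.66, while 49.4% of all genes were above 0; the exceptions were Adar and Xaf1. The count called was 0 in edgeR (quasi-likelihood, Benjamini-Hochberg), against 0.07% of all genes, with 20 genes at an unadjusted p under 0.05 (5.81% of all genes) and 1 called by DESeq2 (0.21% of all genes). That count of 20 was 4 without TG female 4 (4.24% of all genes), 10 without WT female 3 (4.86%), 12 without WT male 3 (3.7%), 13 without TG female 1 (5.15%) or TG male 3 (5.76%), 31 without WT male 4 (5.6%) or WT female 2 (5.58%), and 1 without the sex covariate (5.5%). The 3 with the smallest p were Adar at 0.27 ± 0.07 (SE), Eif2ak2 at -0.46 ± 0.13 and Parp14 at -1.01 ± 0.30, with an adjusted p of 0.553, 0.592 and 0.627 in edgeR (quasi-likelihood, Benjamini-Hochberg). Further differences were -1.60 ± 0.62 for Zbp1, -1.50 ± 0.45 for Usp18, -1.39 ± 0.48 for Ifit1, -0.97 ± 0.40 for Isg15, -0.98 ± 0.59 for Irf7 and 0.10 ± 0.19 for Xaf1. Both TG libraries lay below both WT libraries for 23 genes, against 20% of all genes, and WT female 3 was the highest of the 4 for 30, against 23.7%. The TG libraries of this class are both female and the WT libraries 1 of each sex, so sex enters through the covariate estimated over all libraries. WT male 3 and WT female 3 had mean log2 CPM over the set of 3.16 and 3.58, and TG female 1, at 3.17, lay between them.

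In the cortex class, with 1 TG library, no gene passed either, against 0.274% of all genes called. Differences were above 0 for 34 of 44, against 48.6% of all genes, with a median log2 value of 0.28, and TG male 4 exceeded WT male 4 and WT female 2 for 12 genes, against 35.4% of all genes tested. The smallest p belonged to Igtp at 1.01 ± 0.32 (SE), Irgm1 at 0.71 ± 0.23 and Parp9 at 0.75 ± 0.31, with an adjusted p of 0.280, 0.286 and 0.401 in edgeR (quasi-likelihood, Benjamini-Hochberg); the lone TG library is assumed to vary like the others. At an unadjusted p under 0.05 there were 4 genes, against 10.8% of all genes. With 1 library left out at a time the median ran from -0.14 to 0.92, with the lowest value without WT female 2, where 16 were above 0, and the highest without WT male 4, where all 44 were. The direction in this class therefore rests on which WT library is kept.

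The difference of the genotype effect between the olfactory and hindbrain classes was tested as a contrast of its own. No gene of the set passed in edgeR (quasi-likelihood, Benjamini-Hochberg), against 0.0117% of all genes, while 38 of 44 had an unadjusted p under 0.05 (5.46% of all genes). The median difference was 1.62 on the log2 scale, and 43 of 44 were above 0 (51.4% of all genes), the exception being Adar at -0.13 ± 0.09. Eif2ak2 at 1.06 ± 0.16, Irgm1 at 1.45 ± 0.24 and Ifit2 at 1.06 ± 0.19 had the smallest p, with an adjusted p of 0.209, 0.265 and 0.265 in edgeR (quasi-likelihood, Benjamini-Hochberg). DESeq2 called 17, against 0.198% of all genes, and 13 were called without WT male 4 or without WT female 2. The share of all genes called in those left-out fits is not given here. Without TG female 2 the median was 1.25, 33 had an unadjusted p under 0.05 (11.6% of all genes), and 0 were called in that test (0.0117%). Over all settings the median ran from 0.74 to 1.83, with 41 to 43 genes above 0. The hindbrain TG libraries are both female and the olfactory TG libraries include males, so sex enters this contrast through the covariate. Only 3 TG and 4 WT libraries stand on one side of this contrast and 2 and 2 on the other.

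Over all 15 libraries, the comparison the study was set up for, no gene of the set passed, against 0.111% of all genes called. Of the 44 genes 41 were above 0, against 49.8% of all genes, with a median log2 difference of 0.39, and 5 had an unadjusted p under 0.05 (1.83% of all genes). Irf9 at 0.39 ± 0.17 (SE), Xaf1 at 0.58 ± 0.25 and Irf7 at 1.06 ± 0.47 had the smallest p, with an adjusted p of 0.9999 for each in edgeR (quasi-likelihood, Benjamini-Hochberg). Without TG female 2 the median was 0.17, 37 were above 0 and 0 had an unadjusted p under 0.05. No gene of the set had all 7 TG libraries above all 8 WT libraries (0.0933% of all genes did).

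With a term for library class, again no gene of the set passed, against 0.496% of all genes. All 44 differences were above 0, against 50.4% of all genes, with a median of 0.35, and 5 had an unadjusted p under 0.05 (8.4% of all genes). Adar at 0.18 ± 0.04 (SE), Xaf1 at 0.68 ± 0.17 and Lgals3bp at 0.66 ± 0.25 had the smallest p, with an adjusted p of 0.0931, 0.153 and 0.505 in edgeR (quasi-likelihood, Benjamini-Hochberg). Without TG female 2, 35 of 44 were above 0 and the median was 0.13, and 1 gene was called without WT male 1. DESeq2 called 2, against 1.02% of all genes, and 3 were called without the hindbrain and cerebellum libraries. The share of all genes called in the fits with libraries left out is not given here.

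With genotype in the fit, the set was called between library classes no more often than all genes, though its calls against the cortex class were mostly upward. Against the cortex class, 18 genes were higher and 3 lower in the olfactory class, where 48.9% of all genes were called (23.9% higher and 25% lower), so the share of calls, 21 of 44, is near that of all genes, while most of the set's calls were upward. The median log2 difference was 0.94. Eif2ak2 rose by 0.92 ± 0.19 (SE, log2), Trim25 by 0.89 ± 0.22, Samd9l by 1.08 ± 0.27 and Ddx58 by 0.75 ± 0.21, while Herc6 fell by 1.54 ± 0.22 and Cmpk2 by 0.58 ± 0.13. In the same sequence the adjusted p was 0.00178, 0.00625, 0.00670, 0.00990, 1.13e-04 and 0.00264 in edgeR (quasi-likelihood, Benjamini-Hochberg). Adar was the third to fall, by 0.14 ± 0.05. The count was 5 without WT female 2 and 6 without TG male 4, both cortex libraries. The share of all genes called in these fits is not given, so the counts show only that the set's calls fell. For 7 genes all 3 cortex libraries lay below all 7 olfactory libraries, against 17.9% of all genes.

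Against the cortex class, 12 genes were higher and 2 lower in the hindbrain class, where 55.6% of all genes were called (28.2% higher and 27.5% lower). In this fit the set's share of calls was thus below that of all genes. The median log2 difference was 0.76, and all 3 cortex libraries lay below all 4 hindbrain libraries for 31 genes, against 29.8% of all genes. Eif2ak2 rose by 1.09 ± 0.21 (SE, log2), Trim25 by 0.76 ± 0.25, Ddx58 by 0.70 ± 0.23 and Xaf1 by 0.72 ± 0.25, while Herc6 fell by 2.12 ± 0.26 and Adar by 0.18 ± 0.06. In the same sequence the adjusted p was 8.10e-04, 0.0200, 0.0203, 0.0234, 2.88e-05 and 0.0185 in edgeR (quasi-likelihood, Benjamini-Hochberg). The count of 14 became 2 without WT male 3 (44.6% of all genes), 3 without WT female 2 (44.5%), 4 without WT female 3 (52.3%) or TG male 4 (50.2%), 7 without WT female 4 (54.3%), 8 without TG male 1 (54%), 9 without WT female 1 (54.8%) or TG male 3 (55.4%), and 23 without TG female 2 (55.3%) or TG female 4 (53.6%).

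Between the hindbrain and olfactory classes 4 of the 44 genes differed, where 66.8% of all genes were called, so the set's share of calls was far below that of all genes. Cmpk2 and Xaf1 were higher in the hindbrain class, by 0.94 ± 0.12 and 0.67 ± 0.19 (log2 ± SE), and Stat2 and Herc6 fell by 0.30 ± 0.10 and 0.58 ± 0.22. Their adjusted p was 1.89e-05, 0.00738, 0.0203 and 0.0364 in edgeR (quasi-likelihood, Benjamini-Hochberg). The median over the set was -0.12, and the count was 10 without WT female 3 and 2 without TG female 4, with the share of all genes in these fits not given.

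Sex was compared with genotype and class in the fit. No gene of the set passed between females and males, against 0.07% of all genes, and 42 of 44 were above 0 (50.4% of all genes), with a median log2 difference of 0.38 and 4 at an unadjusted p under 0.05 (5.52% of all genes). Without TG female 2 the median was 0.11, with 31 above 0 and 1 at an unadjusted p under 0.05. The genotype-by-sex interaction was fitted on the 4 genotype-by-sex groups, without a term for library class. It gave 0 calls among the set, against 0.0% of all genes, in edgeR's quasi-likelihood test, with 0 at an unadjusted p under 0.05 (4.07% of all genes). The median was -0.14, and without TG female 2 it was -0.58, with 10 at that p (12.9%). Each group mixes library classes, and the coefficient of variation between libraries was 42.0% in this fit, against 14.2% with the class term. The lack of calls therefore says little about an interaction within a class.

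Around these genes, the pathway was read from lists of its other members. The 17 interferon ligand genes of the table were at 0 counts in all libraries for 7 and at no more than 7 counts in any library for the rest, and none could be tested. Of 9 receptors and kinases, 0 were called between TG and WT in either the olfactory or the hindbrain class, and the median log2 difference was 0.05 and -0.02. Ifnar1, a chain of the type I receptor, lay at 58.1 to 80.5 CPM over the 15 libraries. The smallest p among receptors in the olfactory class belonged to Tyk2, a kinase of the type I receptor, at 0.22 ± 0.08 (log2 ± SE) and Ifngr2, a chain of the type II receptor, at -0.26 ± 0.14. Of 20 tested sensors and adaptors upstream of interferon, 0 were called in either class, with Dhx58, a regulator of RIG-I, at 1.04 ± 0.26 and Trex1, a DNA exonuclease, at 0.21 ± 0.09 in the olfactory class.

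Of 53 tested interferon-induced genes outside the set, 50 were above 0 in the olfactory class (51.7% of all genes) and 11 in the hindbrain class (49.4%), with medians of 0.62 and -0.41. Of these Oasl1, a relative of Oasl2, and Mx2, an interferon-induced GTPase, rose in the olfactory class, where 0.245% of all genes were called. Oasl1 was at 0.179, 0.138, 0.483 and 0.277 CPM in WT and 0.713, 0.713 and 1.77 CPM in TG, with both WT males near 3 counts. Mx2 lay at 1.25 and 2.53 CPM in WT males 1 and 2, 3.26 and 3.32 CPM in WT females 1 and 4, 5.21 and 6.31 CPM in TG males 1 and 3 and 9.48 CPM in TG female 2. The differences were 2.16 ± 0.29 and 1.56 ± 0.24 (log2 ± SE), with an adjusted p of 0.0135 and 0.0294 in edgeR (quasi-likelihood, Benjamini-Hochberg). In the hindbrain class 0 of the 53 were called (0.07% of all genes were), and without TG female 2 neither Oasl1 nor Mx2 was called in the olfactory class.

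Of 7 tested genes of the interferon-inducible p200 family, all 7 were above 0 in the olfactory class, against 51.7% of all genes. The only gene of the 7 to rise was Aim2, a sensor of cytosolic DNA on chromosome 1 (173349547 to 173466040), where 0.245% of all genes were called. Aim2 lay at 1.97 and 1.89 CPM in WT males 1 and 2, 2.29 and 2.32 CPM in WT females 1 and 4, 5.05 and 5.05 CPM in TG males 1 and 3 and 5.98 CPM in TG female 2. Aim2 had 1.84 and 1.92 CPM in the hindbrain libraries WT male 3 and WT female 3 and 4.71 and 3.74 CPM in TG females 1 and 4. For Aim2 the cortex libraries held 1.11 and 1.8 CPM in WT and 1.55 CPM in TG. All TG libraries of the olfactory and hindbrain classes lay above all WT libraries of those classes, and TG female 2 stood close to the other olfactory TG libraries. Its log2 difference was 1.38 ± 0.15 in the olfactory class, 1.03 ± 0.21 in the hindbrain class and 1.10 ± 0.15 with the class term, with an adjusted p of 0.00409, 0.240 and 0.00352 in edgeR (quasi-likelihood, Benjamini-Hochberg). Aim2 was also called without TG female 2 in the olfactory class and with the class term. No other gene of the pathway lists described here passed with the class term.

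Markers of the cell types that could carry the response moved in part with it. The 18 microglia markers summed to 603 to 846 CPM in olfactory WT and 779 to 856 CPM in olfactory TG, 591 to 656 and 546 to 662 CPM in hindbrain WT and TG, 460.4 to 547 CPM in cortex WT, 451 CPM in TG male 4 and 342 CPM in TG female 3. Much of the olfactory sum was 1 marker, Sall1, at 159.8 CPM in WT male 1 and 299 to 411 CPM in the other 6 olfactory libraries, against 17.6 to 82.8 CPM elsewhere. The other 17 markers, summed without Sall1 after the values were seen, came to 558 CPM in TG female 2, 428 and 430.2 CPM in TG males 1 and 3 and 429 to 473 CPM in olfactory WT. They came to 518 to 573 CPM in hindbrain WT, 487 to 596 CPM in hindbrain TG, 418 to 496 CPM in cortex WT, 416 CPM in TG male 4 and 325 CPM in TG female 3. TG female 2 thus stood above the other 6 olfactory libraries in this sum, and the TG males lay beside the lowest WT library. Csf1r, the receptor that microglia need to survive, was 81.4 CPM in TG female 2 against 59.7 to 68.8 CPM in the other 6 olfactory libraries, and C1qa, of complement, 71.6 against 40.5 to 49.9 CPM. P2ry12 went the other way, at 35.9 CPM in TG female 2 against 41.2 to 46.3 CPM in the other 6. P2ry13, at 14.8 CPM there, lay within their range of 13.1 to 16.4 CPM. These genes were chosen after their values were seen. None of the 18 markers had all 3 TG above all 4 WT libraries, and the part of microglia in the interferon difference was not tested. The 13 markers of activated microglia summed to 2066 to 2481 CPM in olfactory WT and 2101 to 2292 CPM in olfactory TG, most of it Apoe, which astrocytes also express, and Clec7a and Gpnmb had all 3 TG above all 4 WT libraries. TG female 2 was highest of the 7 for Itgax, at 4.66 CPM against 0.358 to 1.15 CPM, Clec7a, at 3.35 against 0.655 to 1.48 CPM, and Cst7, at 1.06 against 0.0604 to 0.548 CPM; their part was not tested. Summed endothelial markers (13 genes) were 243 to 357 CPM in olfactory WT and 274 to 307 CPM in TG, and the 9 markers of border macrophages and monocytes 11.4 to 16.8 and 14.5 to 20.9 CPM, highest in TG female 2. Within that list Ccr2, of monocytes, was 2.23 CPM in TG female 2 against 0.724 to 1.21 CPM in the other 6 olfactory libraries, but it was also 2.1 CPM in TG female 4 and 1.97 CPM in TG female 3; its part was not tested.

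The 10 T cell markers summed to 11.7 CPM in TG female 2 and to 2.36 to 10.4 CPM in the other 6 olfactory libraries. Most of that sum was Cd4, at 7.76 CPM in TG female 2 and 6.08 CPM in WT male 1, while the defining gene Cd3d was at 0 counts in TG female 2 and Cd3e at 0.101 CPM, under the 0.152 CPM that 3 counts make there. Of the 7 natural killer cell markers, Ncr1, Gzma and Prf1 were at 0 counts in TG female 2, while Gzmb, at 0.304 CPM, and Klrb1c, at 0.152 CPM (3 counts), were highest in TG female 2, and their part was not tested. The sum of the 7 was nearly all Eomes, which mitral and tufted neurons of the olfactory bulb also express. The 8 neutrophil markers summed to 0.608 CPM in TG female 2 and to 0.655 to 15.5 CPM in the other 6. Oligodendrocyte markers, of the cells in which the PLP promoter is active, summed to 1959 to 3747 CPM in olfactory WT and 2416 to 3658 CPM in TG. Striatal neuron markers varied inside the olfactory class, from 377 CPM in WT male 2 to 1579.6 CPM in WT male 1 and 1654 CPM in TG female 2; the part of striatal tissue was not tested.

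**Figure D4:**
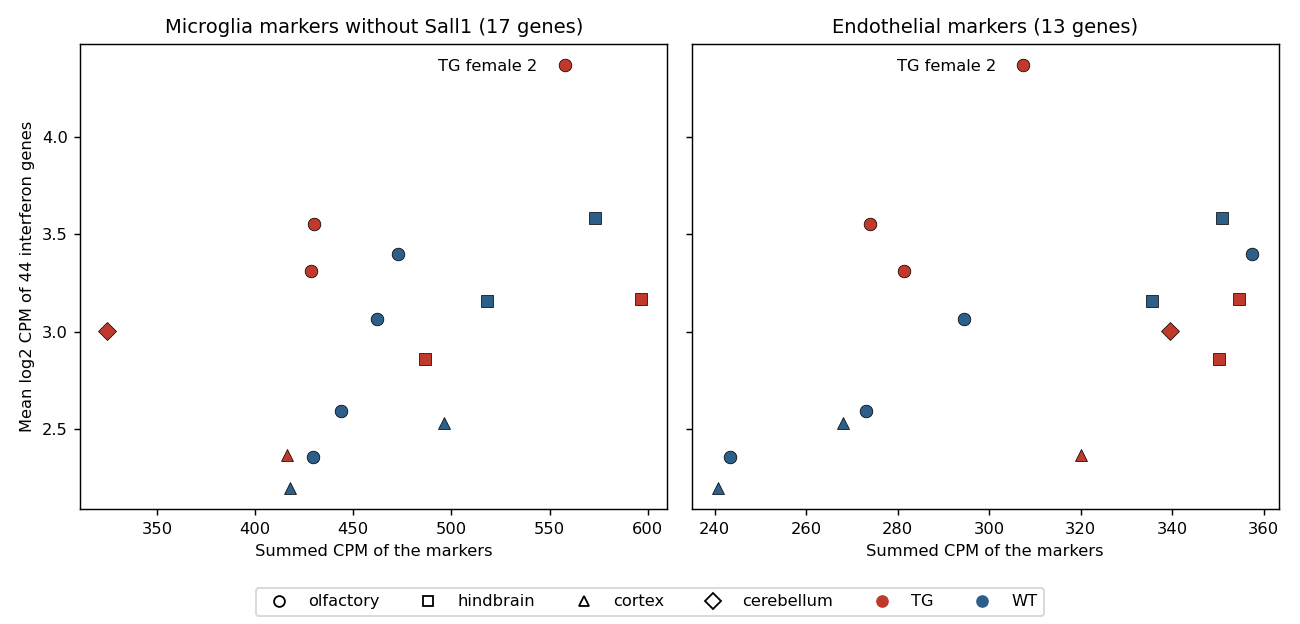
Mean log2 CPM of the 44 genes (y axis) against the summed CPM of 17 microglia markers, Sall1 left out (left), and 13 endothelial markers (right) in 15 libraries, 1 point each; shape gives the class and colour the genotype. TG female 2, at a mean of 4.37, lies above every other library on both panels, with a microglia sum of 558 CPM that is the highest of the olfactory class but within the range of the hindbrain class, and an endothelial sum within the range of the other libraries.

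Read against the promoters, the 19 genes with an ISRE match had a median log2 difference of 1.11 in the olfactory class and -0.73 in the hindbrain class. The 16 genes with a promoter and no match had medians of 0.54 and -0.37, and the 9 that the promoter table lacks had 1.31 and -1.01. Of the 5 called genes Irgm1 and Eif2ak2 held an ISRE match, Xaf1 held neither core in its window, and Zbp1 and Rtp4 had no promoter in the table. Isg15, Ifit1, Ifit3, Bst2 and Gbp2, whose stretches are printed above, had olfactory differences of 1.55, 1.49, 1.25, 1.71 and 1.11, and Irf1, with a GAS core alone, of 0.21. Of the other genes with a GAS core alone, Ifit2 and Ifi35 lay higher than Irf1 and Adar lower. Differences ran from 0.35 to 1.71 with an ISRE match and from 0.06 to 2.08 with a promoter and no match. Ifi44, Irf7 and Oasl2, with neither core in the window, lay above every gene with a match. These medians are descriptions of genes that vary together across the same libraries.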

How the data were processed

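15 bulk RNA libraries were read from 1 table of raw counts per gene, which the authors deposited; per the labels, they were stranded total RNA libraries from 250 ng RNA, read as 100 bp pairs. The submitters' processing notes name STAR 2.7.5b, featureCounts, Subread and GRCm38; how strand and multiply mapped reads were counted is not given in the sources used here. Genes were tested with edgeR 4.0.16 (R 4.3.3, quasi-likelihood, robust, TMM scaling, Benjamini-Hochberg adjustment over 17151 genes) with sex as a covariate, after filterByExpr; the steps were tested on simulated data. Totals ran from 15170772 to 35850998 counts. The genes, lists and library classes were chosen with earlier results of these data known. All values are given for 10 fixed genes and for those called in a comparison, at most 6 each, or else the 3 with the smallest p. Alternatives were other scalings, filters, DESeq2 1.42.0, limma 3.58.1, covariates and left-out libraries. One list of feedback genes of the pathway is not reported here.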

Additional observations from a re-analysis of the deposited data

Results flagged for a closer look

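Each of 16 values (10 fixed genes, the 5 called genes and the mean over the set) was examined in each group of 4 libraries by Dixon's test for a single library far from the other 3. Of 48 combinations of value and group, 5 held such a library. Chance gives about 1 in 20 for independent values, but these genes vary together and the 5 called genes were picked from these same libraries. The count is therefore a description. Isg15 in TG female 2 was at 4.01 log2 CPM, with the other TG females at 1.41 to 1.82. Oasl2 in TG female 2 was at 6.03 log2 CPM against 3.52 to 3.72, and Zbp1 there at 2.07 against -1.42 to -1.09. Isg15 in WT female 2, a cortex library, was the lowest of the WT females at 0.50 log2 CPM, with the others at 2.44 to 2.69. Isg15 in WT male 3, a hindbrain library, was the highest of the WT males at 2.13 log2 CPM, with the others at 1.47 to 1.57. In each of these groups the library apart also differs from others of its group in library class, and the part of class was not tested.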

How the results depend on the processing

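Over all settings the fitted difference changed sign for 1 of 44 genes within the olfactory class (Cmpk2) and for 12 with the class term. The set's median did so in the cortex class (-0.14 to 0.92), for hindbrain against olfactory (-0.51 to 0.14) and for the genotype-by-sex interaction (-0.58 to 0.57, with 6 to 43 genes above 0). Within the olfactory class it ran from 0.46, without the sex covariate and TG female 2, to 1.20. Of the named genes' values under alternatives 1113 kept their side of the threshold, 34 passed it and 106 no longer did. Within the olfactory class the 5 calls became 23 with DESeq2 (0.671% of all genes), 0 without the sex covariate (0.175%) and 1 without the hindbrain and cerebellum libraries (0.12%); chosen after seeing the data were fits of the olfactory libraries alone (15 calls and 0.267%, or 3 and 0.326% without TG female 2), without TG female 2 and WT female 3 (0 and 0.0763%), and without TG female 2 or the sex covariate (0 and 0.0995%). DESeq2 also gave 2 calls for genotype with a class term, 1 in the hindbrain class and 17 for the difference between olfactory and hindbrain classes. Genotype with a class term had 3 calls without the hindbrain and cerebellum libraries. Hindbrain against cortex had 8 calls with no filter on low counts (40.2%), 23 with no sex covariate (57.8%) and 28 with that and TG female 2 left out (57.4%). Leaving out 1 library at a time gave 0 to 17 calls within the olfactory class (0.103% to 0.403% of all genes), 0 to 1 with the class term, 0 to 13 for the difference between classes, 5 to 29 for olfactory against cortex, 2 to 23 for hindbrain against cortex and 2 to 10 for hindbrain against olfactory; the cortex genotype comparison could not be fitted without TG male 4. The cause of these moves was not tested. Counts of calls printed without a share of all genes show only how far the set's calls move between settings. With the replicate number as a block the calls were 0 within the olfactory class, 6 for olfactory against cortex, 2 for hindbrain against cortex and 11 for hindbrain against olfactory; the numbers share no source in the labels, and same-numbered libraries correlated from -0.62 to 0.91 over 21 pairs, so no pairing was assumed. Zbp1, near 3 counts in several WT libraries, is limited by depth.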
